A study of Mus musculus with 53 samples.

Results

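RNA-seq profiles of bone marrow-derived macrophages (BMDMs) that received no cytokine were compared between the end of an additional 24 h in culture and its beginning. The comparison took 4 WT control samples at 24 h and 4 WT control samples at 0 h, of 53 samples in the series, which was made to follow the response of WT and Stat6-/- BMDMs to IL-4. The members were the loci that reached 1 FPKM, a read level scaled to transcript length and library size, in at least 1 of these 8 samples, 10696 of the 23847 loci in the tables (44.9%). All cells came from C57BL/6 mice of 8 to 12 weeks, whose marrow was differentiated for 6 days in medium that held L929 cell supernatant as the source of M-CSF. The WT mice were described as individual animals. Stat6-/- mice lack the transcription factor through which IL-4 acts. Their untreated samples, 2 at 0 h and 2 at 24 h, are used below as a separate pair of groups. None of the samples compared here had received IL-4, and what the medium did or did not receive over the 24 h is not given in the sources used here.

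BMDMs are grown from marrow precursors by M-CSF, the growth factor that drives their proliferation, differentiation and survival, and the cultures still hold dividing cells when differentiation is stopped. Macrophages balance their cholesterol through a pair of sterol-sensing programs. SREBP2 switches on the genes of cholesterol synthesis and uptake when sterols are scarce, and the LXR receptors switch on export pumps such as ABCA1 when sterols are plentiful. NRF2 is the transcription factor of the antioxidant response, which makes glutathione and breaks down heme, and type I interferon keeps a set of antiviral genes at a basal level in resting macrophages.

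The cells carried the markers of macrophages at both times. Csf1r, the M-CSF receptor, was at 692 to 927 FPKM at 0 h and at 816 to 1033 FPKM at 24 h, and Emr1, which encodes the macrophage surface protein F4/80, was at 679 to 728 FPKM and 992 to 1201 FPKM. Stat6 was at 70.8 to 87.5 FPKM in the 8 WT samples and at 17.95 to 22.1 FPKM in the 4 untreated Stat6-/- samples. FPKM sums were 396441 to 440959 at 24 h and 403215 to 434971 at 0 h (exact permutation test, two-sided, p = 0.429). The number of loci that reached 1 FPKM was lower at 24 h, 10170 to 10285 against 10310 to 10365 (exact permutation test, two-sided, p = 0.0286, the smallest that 4 against 4 samples can give). The share of the sum that fell on the 10 most abundant loci was 16.7% to 19.7% at 24 h and 12.9% to 16.9% at 0 h (p = 0.0571, same exact test). Relative depth, recovered from the spacing of low values, was 0.889 to 1.08 at 24 h and 0.944 to 1.15 at 0 h (p = 0.171, same exact test). The depth in reads is unknown. Lyz2, the lysozyme of macrophages, was listed at 0 in 2 of the 4 samples at 0 h and at 18491 to 24765 FPKM in the other 6, so a 0 in these tables can be a failed estimate. Of the tested loci, 21 were listed at 0 in some of the 8 samples and at 10 FPKM or more in another, and 0 of these were called (limma, as described next; 4 at an unadjusted p under 0.05).

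At 24 h, 42 genes were higher and 84 were lower than at 0 h by at least 2-fold. The differences were tested with limma on log2(FPKM + 1), a scale that understates the changes of low genes, in a model of all 53 samples. A gene was called at a Benjamini-Hochberg adjusted p under 0.05 and an absolute log2 change of at least 1. The 126 called genes were 1.18% of the loci tested (0.393% higher, 0.785% lower). In 124 of them each 24 h sample lay beyond each 0 h sample, and the exceptions were 2810417H13Rik and Pbk. Over all loci the groups did not overlap in 2678 (25%), 9.17% of loci with 24 h higher and 15.9% with 24 h lower. Without the fold limit, 635 genes rose (5.94%) and 1286 fell (12%), and "rose" and "fell" are used below for genes with an adjusted p under 0.05. This split depended on the scaling. Of the genes with an adjusted p under 0.05, 33.1% were higher as deposited, 45.9% after upper quartile scaling and 57.2% after quantile normalization. The called genes were 42 higher and 84 lower, 45 and 71, and 47 and 67. Of the 126 called as deposited, 113 stayed called after upper quartile scaling and 108 after quantile normalization. In both scalings 0 of the 126 changed sign. A change of sign was unlikely from the start for genes chosen at a 2-fold change or more, so this count adds no support. Left out 1 at a time, replicates 1 and 2 at 0 h moved the number of genes called higher furthest, to 26 and 25, and the number called lower ranged from 61 to 92. The median log2 change of all loci was -0.04, which stands beside the medians of gene lists below. For lists, counts at an unadjusted p under 0.05 are given too. The share of all loci at that limit was not counted. It is at least the 18% of loci with an adjusted p under 0.05, so these counts alone do not set a list apart. In whole cultures, fewer cells of a type and less RNA per cell cannot be told apart.

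**Figure D1:**
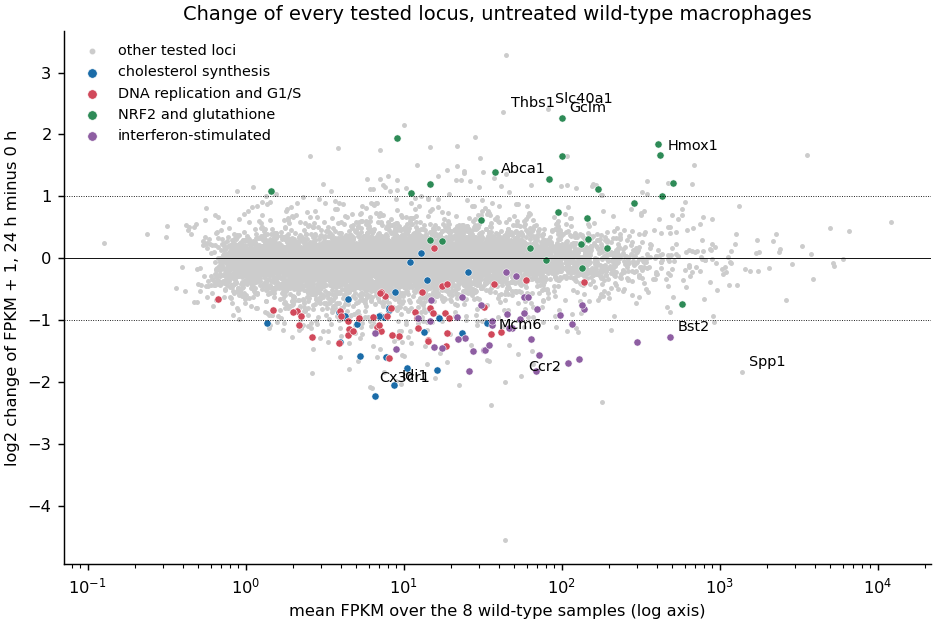
Log2 change of FPKM + 1 from 0 h to 24 h (vertical axis) against the mean FPKM over the 8 WT samples (horizontal log axis), 1 point per tested locus, with the members of 4 gene lists in colour and dotted lines at a 2-fold change. Lyz2, with failed estimates at 0 h, is left out, and most points of the cholesterol synthesis, DNA replication and interferon-stimulated lists lie below 0, whereas most of the NRF2 list lies above it.

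Abca1, a gene of cholesterol export, was higher at 24 h, and 24 of 26 tested genes of cholesterol synthesis fell. Abca1 (chr4:53030789-53159895, mm10), the pump that loads cholesterol onto apolipoprotein A-I, was at 19.7, 21.8, 19.3 and 23.5 FPKM in the 4 samples at 0 h and at 53.1, 59.7, 46.5 and 54.0 FPKM at 24 h. Each 24 h sample was above each 0 h sample. The mean rose 2.53-fold, from 21.1 ± 1.97 to 53.3 ± 5.38 FPKM (SD, n = 4), with a log2 change of 1.296 (SE 0.20, adjusted p = 1.46e-05). Mylip, a ubiquitin ligase and an LXR target like Abca1, was at 15.8, 15.7, 19.0 and 18.2 FPKM at 0 h and at 46.2, 42.0, 46.4 and 52.3 FPKM at 24 h (log2 change 1.39, SE 0.35, adjusted p = 0.00529). Its groups did not overlap either.

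Of 23 tested genes in a list of LXR targets and cholesterol efflux, 2 were called higher, 7 rose, 1 fell and 15 did not pass, and the median log2 change was 0.29. The others that rose were Pltp, a phospholipid transfer protein (424 to 791 FPKM), Cd5l, a secreted macrophage protein (78.2 to 139.9 FPKM), Abcg1, a second cholesterol pump (41.3 to 62.9 FPKM), Arl4c (45.4 to 69.5 FPKM) and Apoe, the main apolipoprotein of macrophages (4147 to 5777 FPKM). Srebf1, the factor for fatty acid synthesis and itself an LXR target, fell from 16.6 to 13.3 FPKM.

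Idi1 (chr13:8885606-8892396), the isomerase that makes dimethylallyl diphosphate, was at 13.8, 16.9, 13.8 and 14.2 FPKM at 0 h and at 2.74, 3.11, 2.86 and 2.40 FPKM at 24 h, a 5.29-fold difference of the means (log2 change -2.05, SE 0.28, adjusted p = 2.1e-06). Sqle (chr15:59315092-59331193), squalene epoxidase, was at 16.4, 18.4, 15.7 and 16.6 FPKM at 0 h and at 3.97, 4.03, 4.77 and 4.02 FPKM at 24 h (log2 change -1.77, SE 0.21, adjusted p = 1.25e-07). In both genes the highest 24 h sample was below the lowest 0 h sample by a factor of at least 3.

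The list of SREBP2 targets and cholesterol synthesis held 26 tested genes, of which 12 were called lower, 24 fell and 0 rose (limma; 0 higher at an unadjusted p under 0.05), with a median log2 change of -0.96. In all 24 the groups did not overlap. Insig2 and Scap, which retain SREBP2 in the endoplasmic reticulum or escort it out, did not pass (12.4 to 13.2 FPKM and 11.2 to 10.7 FPKM). Called lower beside the genes above were, among others, Cyp51, lanosterol demethylase (12.1 to 3.32 FPKM), Fdps, farnesyl diphosphate synthase (8.52 to 2.04 FPKM), the sterol carrier Stard4 (6.15 to 1.78 FPKM), Srebf2 itself (33.2 to 13.8 FPKM), Insig1 (19.1 to 7.79 FPKM), squalene synthase Fdft1 (7.24 to 2.94 FPKM), Sc4mol (46.1 to 21.6 FPKM) and Hsd17b7 (2.21 to 0.543 FPKM). For Fdps 26.2% and for Idi1 17.7% of the 50-base sequences of their transcripts also occur in other genes, so reads could be split there.

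RefSeq promoters (GRCm38.p6, 250 bases before to 50 after the start) were found for 19 of the 26 tested genes of this list and 17 of the 23 of the LXR list. The CCAAT box, the site of the factor NF-Y, was searched as CCAAT on both strands. It was present in 17 of the 19, including 6 of 6 called genes. The share was 41.1% of all promoters and 43.3% of those of tested loci. A high share was not particular to this list. Among lists with 0 called genes it was 12 of 13 (92.3%) for the clock and 73.9% for integrated stress. For ribosome biogenesis, also with 0 called genes, it was 30.4%. The sterol response element, searched as TCACCCCAC on both strands, was found in 1 of the 19, against 0.614% of all promoters. A DR4 element, the site of LXR with its half-sites 4 bases apart, was found in 2 of 17 promoters of the LXR list, against 0.241% of all. It was searched after the expression values were seen. Promoters of 3 genes are shown because their genes changed in opposite directions, each as the 250 bases before the start, 5′ to 3′ on the strand of the gene, with the CCAAT box (Idi1, Cyp51) or the DR4 element (Abca1) in capitals on whichever strand it was read.
Abca1, chr4:53159896-53160145, minus strand: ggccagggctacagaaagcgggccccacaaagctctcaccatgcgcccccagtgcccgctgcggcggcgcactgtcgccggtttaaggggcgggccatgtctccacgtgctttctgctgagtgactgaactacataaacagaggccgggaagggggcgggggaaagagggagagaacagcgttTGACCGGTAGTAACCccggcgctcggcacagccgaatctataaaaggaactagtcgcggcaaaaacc
Idi1, chr13:8885356-8885605, plus strand: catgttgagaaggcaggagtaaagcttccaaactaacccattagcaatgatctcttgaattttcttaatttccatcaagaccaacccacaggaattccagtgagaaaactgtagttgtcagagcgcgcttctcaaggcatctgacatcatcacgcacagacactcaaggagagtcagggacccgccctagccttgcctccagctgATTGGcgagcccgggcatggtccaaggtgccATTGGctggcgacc
Cyp51, chr5:4104698-4104947, minus strand: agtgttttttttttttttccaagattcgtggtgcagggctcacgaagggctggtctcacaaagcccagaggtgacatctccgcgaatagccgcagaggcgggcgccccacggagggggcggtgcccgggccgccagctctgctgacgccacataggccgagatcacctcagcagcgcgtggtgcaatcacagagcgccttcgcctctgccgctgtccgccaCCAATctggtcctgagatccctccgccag
The DR4 element of Abca1 starts 67 bases before the start of the gene, and the CCAAT boxes of Idi1 start 45 and 14 bases before it. A match of letters does not show that a factor was bound.

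**Figure D2:**
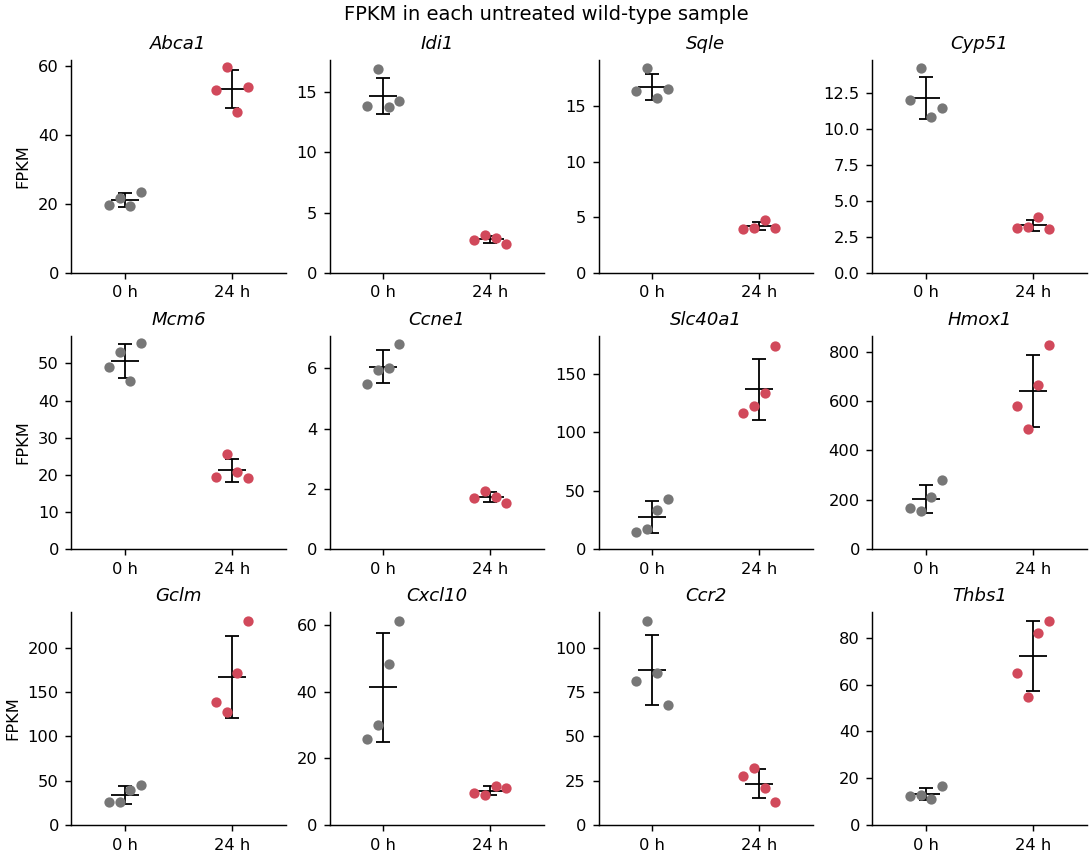
FPKM (vertical axis, from 0) of 12 genes in each of the 4 untreated WT samples at 0 h (grey) and 24 h (red), with the mean and SD of each group as black bars. The groups do not overlap in any of the 12.

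The list of fatty acid synthesis and lipid droplets changed less as a whole. Of its 20 tested genes, 1 was called, Fads2, the delta-6 desaturase, which fell from 4.42 ± 0.984 to 0.937 ± 0.143 FPKM (SD, n = 4, log2 change -1.47, adjusted p = 1.27e-09). Fasn, the fatty acid synthase, fell from 5.10 to 2.66 FPKM, and Acly and Acaca fell by smaller amounts. In the whole list 4 genes fell and 1 rose. The median log2 change was 0.06, over a list that also holds genes of lipid storage and uptake.

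DNA replication genes were lower at 24 h almost throughout their list. Of 48 tested genes of DNA replication and the G1/S transition, 20 were called lower, 44 fell and 0 rose (limma; 0 higher at an unadjusted p under 0.05), and the median log2 change was -0.95. The groups did not overlap in 46 of the 48. Ccne1 (chr7:38097984-38107490), the cyclin that starts S phase, was at 5.496, 5.94, 6.01 and 6.81 FPKM at 0 h and at 1.70, 1.92, 1.72 and 1.52 FPKM at 24 h (log2 change -1.38, SE 0.14, adjusted p = 5.01e-09). Ccne2, a separate gene for a related cyclin E, went from 4.16 to 1.13 FPKM. Ccnd1, the cyclin induced by growth factors, went from 57.5 to 24.8 FPKM. The groups were separate in each of these.

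Subunits of the replicative helicase fell together. Mcm5 was at 26.7, 23.9, 25.9 and 33.1 FPKM at 0 h and at 9.98, 11.6, 8.98 and 7.83 FPKM at 24 h (log2 change -1.42, SE 0.21, adjusted p = 5.06e-06). Mcm6, the most abundant subunit per length, was at 48.9, 53.2, 45.3 and 55.5 FPKM at 0 h and at 19.4, 25.7, 20.7 and 19.0 FPKM at 24 h (log2 change -1.23, adjusted p = 1.16e-06). Replicate 2 had the highest 24 h value of both. Mcm2, Mcm3 and Mcm7 were called too, and Mcm4 fell from 15.5 to 8.09 FPKM without reaching the fold limit. The helicase partners Cdc45 (6.54 to 2.43 FPKM) and Mcm10 (6.65 to 2.26 FPKM) were also called.

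Uhrf1, which takes part in copying DNA methylation after replication, was at 10.7, 12.4, 12.0 and 15.5 FPKM at 0 h and at 3.48, 4.87, 3.00 and 2.67 FPKM at 24 h (log2 change -1.61, adjusted p = 3.53e-06). Of the genes for making nucleotides, Rrm2 (20.8 to 7.83 FPKM), Tk1 (17.1 to 7.45 FPKM) and Dut (6.24 to 2.62 FPKM) were called, and Rrm1 and Tyms fell by just under 2-fold on the log2(FPKM + 1) scale. DNA ligase Lig1 (20.7 to 7.73 FPKM), polymerase epsilon Pole (3.33 to 1.05 FPKM), primase Prim1 (9.78 to 4.11 FPKM) and the chromatin assembly subunits Chaf1a and Chaf1b were called as well. Of the E2F family members in the list, E2f2 fell from 9.43 to 5.81 FPKM, E2f8 from 7.24 to 3.17 FPKM and E2f1 from 21.7 to 15.99 FPKM. The kit kept no strand, so reads of Lig1 and Ccne2 cannot be told apart from those of the loci that overlap them, 6330408A02Rik and Ints8.

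Mitotic genes moved less uniformly than replication genes. Of 50 tested genes of G2/M and mitosis, 2 were called lower, 15 fell and 0 rose (limma; 27 lower and 0 higher at an unadjusted p under 0.05), with a median log2 change of -0.62, and the groups were separate in 6. Mybl2, the factor that turns on the G2/M program, was at 2.03, 2.25, 2.23 and 2.67 FPKM at 0 h and at 0.532, 0.789, 0.514 and 0.430 FPKM at 24 h (log2 change -1.08, adjusted p = 1.25e-06). Pbk, a mitotic kinase, was at 5.04, 8.19, 9.86 and 12.1 FPKM at 0 h and at 3.99, 6.59, 2.82 and 2.40 FPKM at 24 h (log2 change -1.002, adjusted p = 0.025). Its groups overlapped. Mki67, the proliferation antigen, was at 10.7, 15.3, 18.6 and 20.8 FPKM at 0 h and at 10.1, 15.6, 8.38 and 7.54 FPKM at 24 h and did not pass (adjusted p = 0.194). Cdk1 (16.5 to 10.2 FPKM, adjusted p = 0.0751) and Ccnb1 (4.21 to 3.54 FPKM, adjusted p = 0.729) did not pass either. Among 20 tested CDK inhibitors and p53 targets 0 were called (limma; 3 higher and 2 lower at an unadjusted p under 0.05). Cdkn1a was at 103 ± 5.37 FPKM at 0 h and 106 ± 5.89 FPKM at 24 h (SD, n = 4, adjusted p = 0.857), and Cdkn1b, which holds cyclin E in check, rose from 21.1 to 29.1 FPKM.

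Promoters were found for 38 of the 48 tested replication genes and 41 of the 50 mitotic genes. An E2F site, searched as TTTCCCGC or TTTGGCGC on both strands, was present in 11 of the 38 (28.9%), against 1.8% of all promoters and 3.69% of those of tested loci. Among the 16 called genes with a promoter it was in 4, all helicase subunits (Mcm3, Mcm5, Mcm6 and Mcm7). The CHR element of mitotic genes, searched as TTTGAA on both strands, was in 30 of the 41 mitotic promoters, against 20.2% of all and 13.2% of the replication promoters, and in 1 (Cdca8) it overlapped a CCAAT box. Promoters of 2 helicase subunits, chosen after their values were seen, are shown as the 250 bases before the start with the E2F site in capitals.
Mcm6, chr1:128359706-128359955, minus strand: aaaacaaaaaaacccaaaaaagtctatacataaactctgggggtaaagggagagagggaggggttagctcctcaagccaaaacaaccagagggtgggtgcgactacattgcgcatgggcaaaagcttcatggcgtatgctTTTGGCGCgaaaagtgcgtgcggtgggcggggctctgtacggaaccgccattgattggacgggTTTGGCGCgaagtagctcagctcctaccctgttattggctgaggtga
Mcm7, chr5:138171884-138172133, minus strand: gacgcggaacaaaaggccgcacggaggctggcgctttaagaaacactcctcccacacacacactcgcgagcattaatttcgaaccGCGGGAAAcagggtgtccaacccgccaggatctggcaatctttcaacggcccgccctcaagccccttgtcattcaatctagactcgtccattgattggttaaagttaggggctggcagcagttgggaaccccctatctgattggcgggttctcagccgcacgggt
Mcm6 held 2 sites, which start 110 and 47 bases before the gene, and Mcm7 held 1, which starts 165 bases before it and was read on the opposite strand.

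Antioxidant, heme and iron genes had more called increases than any other list. Slc40a1 (chr1:45908070-45925594), ferroportin, the only known exporter of iron from cells, was at 14.2, 17.3, 33.7 and 43.1 FPKM at 0 h and at 117, 123, 134 and 175 FPKM at 24 h. Each 24 h sample was above each 0 h sample, and replicates 1 and 2 were the lowest at both times. The mean rose 5.06-fold (log2 change 2.41, SE 0.84, adjusted p = 0.041), and over the alternatives the adjusted p ran from 1e-11 to 0.123, the latter without replicate 1 at 0 h. Gclm (chr3:122245557-122267215), the regulatory subunit of the enzyme that limits glutathione synthesis, was at 25.5, 25.4, 39.9 and 45.0 FPKM at 0 h and at 139, 127, 171 and 230.0 FPKM at 24 h, a 4.92-fold rise (log2 change 2.27, SE 0.76, adjusted p = 0.0347, from 1.09e-14 to 0.0895 over the alternatives). Hmox1 (chr8:75093618-75100593), heme oxygenase 1, was at 166, 155, 209.6 and 279 FPKM at 0 h and at 577, 488, 663 and 828 FPKM at 24 h, 3.16-fold higher (log2 change 1.67, SE 0.57, adjusted p = 0.0382, from 2.4e-12 to 0.0971 over the alternatives). The lowest 24 h value of each of these genes exceeded its highest 0 h value.

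Of 26 tested genes of NRF2 and glutathione, 6 were called higher, 6 rose and 1 fell, with a median log2 change of 0.95. At an unadjusted p under 0.05 there were 16 higher and 1 lower, and the groups were separate in 17 with 24 h higher and in 1 with 24 h lower. The other called genes were Cat, catalase (178 ± 60.1 to 630.3 ± 164 FPKM), Srxn1, sulfiredoxin (47.6 ± 7.64 to 153 ± 36.0 FPKM), Gsr, glutathione reductase (20.4 ± 4.35 to 55.2 ± 10.8 FPKM), and Slc7a11, the cystine transporter (0.526 ± 0.0643 to 2.36 ± 1.06 FPKM; SD, n = 4). The calls of Cat (limma, adjusted p = 0.0473) and Srxn1 (limma, adjusted p = 0.0454) were lost in each fit that left out 1 of the 8 samples. Gpx1, glutathione peroxidase 1, fell from 724 to 434 FPKM (log2 change -0.73, adjusted p = 0.014). Nfe2l2, which encodes NRF2, did not pass (122 to 142 FPKM).

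The count of this list depended on which samples shared the estimate of error. In the fit of the 8 compared samples alone, 13 of the 26 were called higher, where 2.01% of all loci were called (0.617% higher and 1.39% lower), and the same number was called in a fit of the 35 WT samples (2% of all loci, 0.626% higher and 1.37% lower). The 7 added genes were Nqo1, Gclc, Txnrd1, Gsta3, Prdx1, Slc48a1 and Taldo1, with log2 changes of 1.01 to 1.94. The spread between replicates of a group, as the median over the list of the residual SD of log2(FPKM + 1), was 0.271 in WT samples and 1.14 in Stat6-/- samples. The 2 Stat6-/- replicates stood apart in these genes. Gclm was at 78.0 FPKM in replicate 1 and 16.2 FPKM in replicate 2 at 0 h, and at 300.4 and 42.9 FPKM at 24 h. With 1 sample left out, 0 of the 26 were called without replicate 1 at 0 h or replicate 4 at 24 h, 1 without replicate 2 at 0 h or replicates 1 or 3 at 24 h, 3 without replicate 3 at 0 h, and 4 without either of the others.

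In the iron and heme list, with 15 tested genes, 2 were called higher (Slc40a1 and Hmox1), 4 rose, 1 fell and the median log2 change was 0.43. Slc11a1, the phagosomal metal transporter NRAMP1, rose from 202 to 351 FPKM, and Slc11a2, the related transporter DMT1, from 27.3 to 33.3 FPKM. Steap3, a ferric reductase, fell from 32.4 to 21.8 FPKM. Among called genes in no list were Trf, transferrin (101 to 228 FPKM), Osgin1 (9.84 to 27.8 FPKM) and Cbr3 (12.8 to 35.3 FPKM). Spic, the transcription factor that responds to heme in macrophages, was at 1.79, 1.72, 2.83 and 4.88 FPKM at 0 h and at 10.001, 8.25, 12.5 and 14.6 FPKM at 24 h (log2 change 1.74, adjusted p = 0.0028). Replicate 4 was the highest at both times.

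The antioxidant response element, searched as TGACNNNGC on both strands after the expression values were seen, was present in 10 of the 21 promoters found for the NRF2 list (47.6%), against 13.99% of all promoters and 17.3% of those of tested loci. Among the 4 called genes with a promoter it was in 2, Gclm and Srxn1. In 2 of the 10 (Mt2 and Prdx1) it overlapped an AP-1 site (TGAGTCA). The promoter of Gclm, the list's member with the largest change, is shown as the 250 bases before its start with the element in capitals, on the opposite strand.
Gclm, chr3:122245307-122245556, plus strand: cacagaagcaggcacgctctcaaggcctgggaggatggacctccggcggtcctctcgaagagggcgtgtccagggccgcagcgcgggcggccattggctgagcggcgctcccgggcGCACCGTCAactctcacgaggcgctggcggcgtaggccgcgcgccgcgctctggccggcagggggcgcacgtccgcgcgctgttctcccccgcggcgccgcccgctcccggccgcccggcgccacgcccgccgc
The element starts 134 bases before the gene.

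Interferon-stimulated genes were lower at 24 h. Of 40 tested genes, 3 were called lower and 0 rose, the median log2 change was -1.10, and in 39 of the 40 each 24 h sample was below each 0 h sample (Irf9 was the exception). At an unadjusted p under 0.05 there were 28 lower and 0 higher. Cxcl10 (chr5:92346639-92348889), the interferon-induced chemokine, was at 25.9, 29.9, 48.2 and 61.3 FPKM at 0 h and at 9.59, 8.93, 11.8 and 11.0 FPKM at 24 h (log2 change -1.83, SE 0.50, adjusted p = 0.0091). Without strand, its reads cannot be told apart from those of the overlapping gene Art3. Gbp2, a guanylate-binding GTPase, was at 48.3, 44.3, 44.9 and 55.7 FPKM at 0 h and at 16.3, 13.4, 18.7 and 18.1 FPKM at 24 h (log2 change -1.49, SE 0.49, adjusted p = 0.0317). Bst2, tetherin, was at 1102, 679, 497 and 514 FPKM at 0 h and at 355, 249.7, 260.3 and 243 FPKM at 24 h (log2 change -1.27, SE 0.43, adjusted p = 0.0367). Replicate 1 had the highest Bst2 at both times. The call was lost without any of 5 samples for Gbp2, with the highest adjusted p (0.0747) without replicate 2 at 24 h, and without any of 5 for Bst2 (0.152 without replicate 1 at 0 h). The count of 3 went to 1 without replicate 1 at 0 h or replicates 2 or 4 at 24 h.

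As in the NRF2 list, the count rested on the samples in the model. The fit of the 8 samples called 24 of the 40 lower, and so did the fit of the 35 WT samples. The residual SD of the list was 0.293 in WT and 1.26 in Stat6-/- samples. Irf7, the factor that amplifies interferon, was at 245 and 1217 FPKM in the 2 Stat6-/- samples at 0 h. Its WT values were 669.5, 543, 281 and 257 FPKM at 0 h against 239, 159.7, 146 and 107 FPKM at 24 h, and it did not pass (adjusted p = 0.259). Ifit3, an antiviral RNA-binding protein, was at 245, 203, 169 and 164 FPKM at 0 h and at 68.1, 56.7, 62.4 and 58.9 FPKM at 24 h (log2 change -1.63, SE 0.66, adjusted p = 0.0794). Ifit1 was at 44.2 to 52.8 FPKM and then at 15.7 to 17.6 FPKM (adjusted p = 0.0636). Irf7, Ifit1 and Ifit3 were chosen after their values were seen. The groups of all 3 were separate.

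The core of the interferon-stimulated response element, searched as GAAANNGAA on both strands, was in 19 of the 30 promoters found for this list (63.3%), including those of the 3 called genes, against 9.76% of all promoters and 8.94% of those of tested loci. The promoters of Cxcl10, Gbp2 and Ifit3 are shown with the element in capitals.
Cxcl10, chr5:92348890-92349139, minus strand: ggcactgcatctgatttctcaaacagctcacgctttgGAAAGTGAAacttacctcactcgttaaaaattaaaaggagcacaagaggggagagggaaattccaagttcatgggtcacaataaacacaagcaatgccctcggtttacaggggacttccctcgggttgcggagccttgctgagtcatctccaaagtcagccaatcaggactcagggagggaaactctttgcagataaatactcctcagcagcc
Gbp2, chr3:142620413-142620662, plus strand: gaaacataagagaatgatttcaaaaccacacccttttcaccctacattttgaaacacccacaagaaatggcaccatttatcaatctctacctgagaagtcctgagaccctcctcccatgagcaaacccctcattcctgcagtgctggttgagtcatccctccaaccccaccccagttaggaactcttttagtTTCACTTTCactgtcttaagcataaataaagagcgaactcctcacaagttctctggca
Ifit3, chr19:34583279-34583528, plus strand: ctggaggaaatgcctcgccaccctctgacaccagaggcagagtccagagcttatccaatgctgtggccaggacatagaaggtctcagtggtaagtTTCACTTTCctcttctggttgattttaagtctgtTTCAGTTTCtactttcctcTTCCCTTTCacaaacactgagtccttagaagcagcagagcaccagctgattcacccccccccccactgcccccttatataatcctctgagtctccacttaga
Ifit3 held 3 matches, of which the first starts 155 and the last 102 bases before the gene. The single matches of Cxcl10 and Gbp2 start 213 and 58 bases before it.

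**Figure D3:**
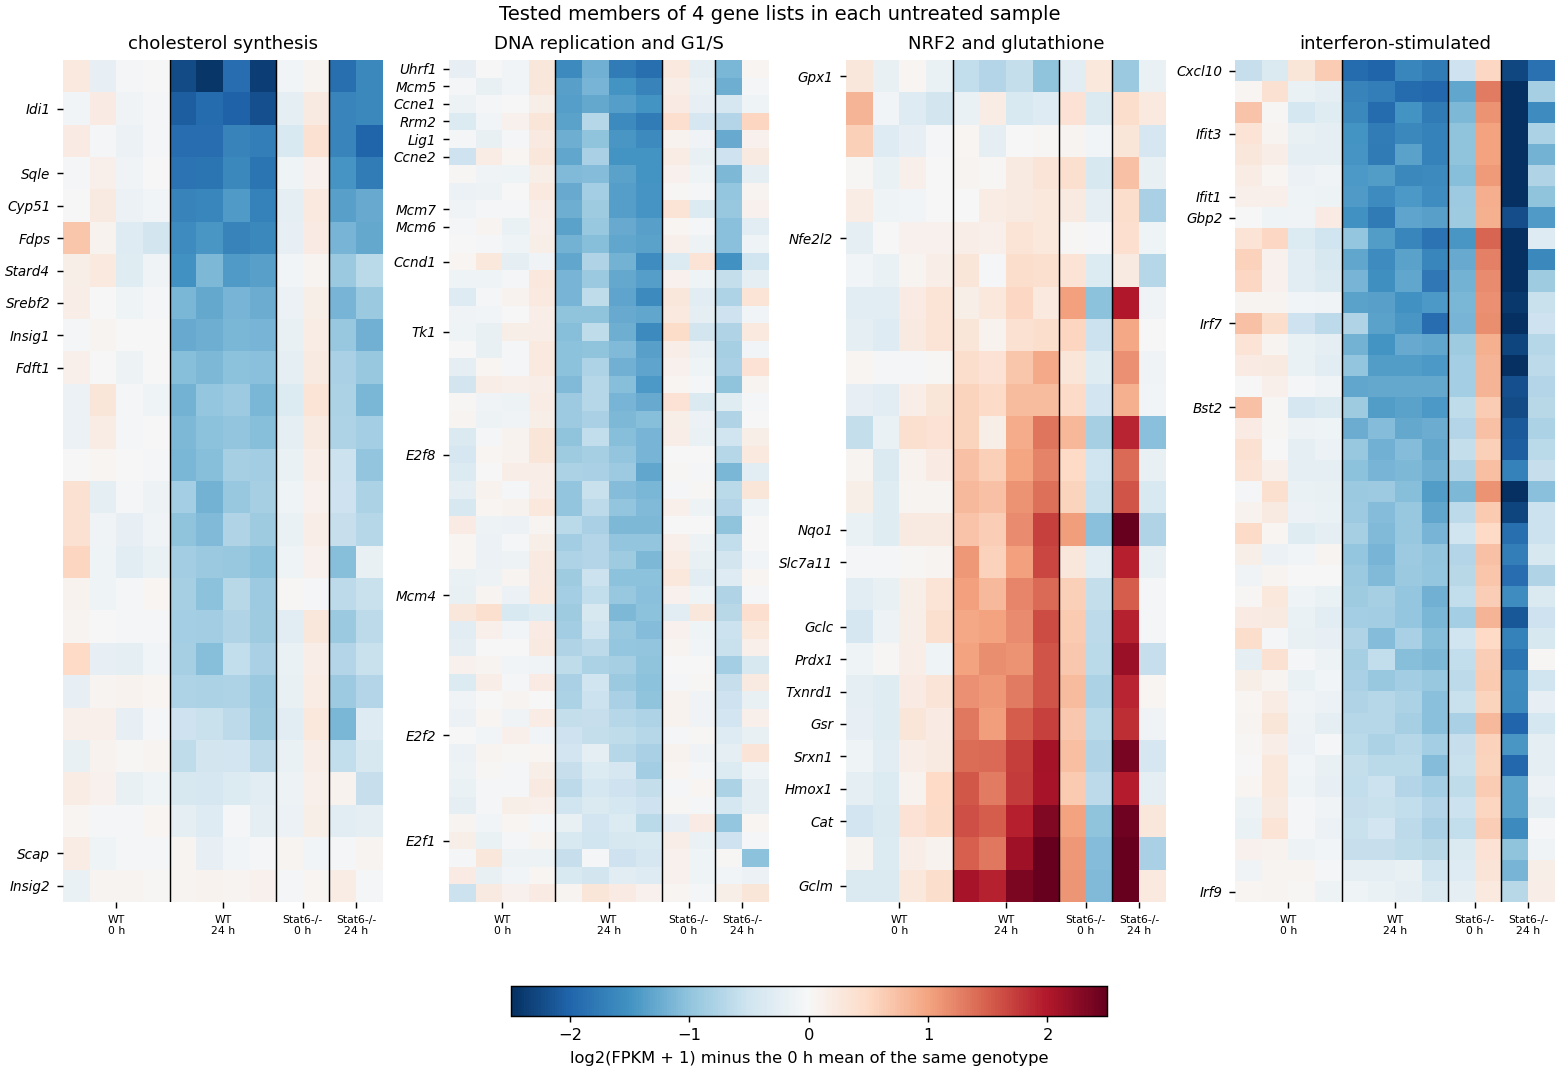
Log2(FPKM + 1) minus the 0 h mean of the same genotype (colour, red higher and blue lower) for the tested members of 4 gene lists (rows, with some of the genes described in the text labelled) in each untreated sample (columns), replicate 1 leftmost in each group. Most rows have the same colour in all 4 WT samples at 24 h, whereas the 2 Stat6-/- samples of a group differ in the NRF2 and interferon-stimulated lists.

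The chemokine receptors Ccr2 and Cx3cr1 were lower at 24 h. Ccr2 (chr9:124102183-124109140), the receptor that draws monocytes out of the marrow, was at 81.2, 115, 85.7 and 67.9 FPKM at 0 h and at 27.4, 32.2, 20.9 and 12.9 FPKM at 24 h (log2 change -1.91, SE 0.54, adjusted p = 0.0118, and 0.0514 without replicate 4 at 24 h). Cx3cr1, the fractalkine receptor, was at 12.5, 12.6, 10.3 and 7.82 FPKM at 0 h and at 2.15, 3.20, 1.36 and 0.768 FPKM at 24 h (log2 change -2.09, SE 0.57, adjusted p = 0.00884). Replicate 4 was the lowest of both genes at both times. Of 13 tested chemokine receptors these 2 were called lower, Ccr3 rose from 2.92 to 4.74 FPKM, and the median log2 change was 0.019. Itgb7, an integrin subunit, went from 68.8 ± 29.0 to 24.5 ± 6.88 FPKM (SD, n = 4, log2 change -1.41, adjusted p = 0.0123, and 0.0682 and 0.0587 without replicate 1 at 0 h or replicate 4 at 24 h). Ly6c1, a monocyte surface protein, went from 4.02 to 1.56 FPKM (log2 change -1.01, adjusted p = 0.0469). Its call was lost in 7 of the 8 fits that left out 1 sample (adjusted p up to 0.153) and under both other scalings, and 32.8% of its 50-base sequences also occur in other genes.

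Secreted products changed in both directions. Spp1 (chr5:104435111-104441053), osteopontin, was at 2266, 2642, 1802 and 1881 FPKM at 0 h and at 733, 702, 526 and 459 FPKM at 24 h (log2 change -1.84, SE 0.22, adjusted p = 2.47e-07). Thbs1 (chr2:118111922-118127133), thrombospondin 1, was at 12.5, 12.7, 11.1 and 16.8 FPKM at 0 h and at 65.1, 54.9, 81.9 and 87.2 FPKM at 24 h (log2 change 2.35, SE 0.19, adjusted p = 5.69e-11). Both pairs of groups were separate. Of 33 tested genes for matrix, proteases and adhesion 1 was called higher (Thbs1) and 3 lower (Spp1, Itgb7 and Mmp8, neutrophil collagenase, 44.0 to 21.7 FPKM), and 4 rose and 5 fell. Vegfa, the vascular growth factor, was at 5.85, 5.28, 5.30 and 7.199 FPKM at 0 h and at 19.1, 17.9, 18.4 and 18.9 FPKM at 24 h (log2 change 1.51, adjusted p = 1.22e-09). It was the called increase of the glycolysis and hypoxia list, and the called decrease was Aldoc, an aldolase, from 20.2 ± 1.15 to 6.97 ± 0.635 FPKM (SD, n = 4, log2 change -1.41). Of the 34 tested genes of that list 5 rose and 5 fell. Slpi, a secreted protease inhibitor, was at 51.7, 41.5, 35.6 and 19.2 FPKM at 0 h and at 9.499, 4.49, 8.23 and 9.36 FPKM at 24 h (log2 change -2.06, adjusted p = 0.000632).

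The C-type lectins Clec4d and Clec4n, which sense microbes, were higher at 24 h. Clec4d was at 377, 379, 445 and 435 FPKM at 0 h and at 925, 853, 1009 and 960.4 FPKM at 24 h (log2 change 1.195, SE 0.28, adjusted p = 0.0027). Clec4n, dectin-2, was at 46.0, 32.3, 55.7 and 70.9 FPKM at 0 h and at 148, 104, 179.9 and 222 FPKM at 24 h (log2 change 1.66, SE 0.42, adjusted p = 0.00497). Each 24 h sample was higher than each 0 h sample in both. Of 25 tested pattern recognition receptors these 2 were called, 5 rose and 1 fell (Clec4e, mincle, 40.2 to 30.8 FPKM). Clec5a, a C-type lectin outside that list and named after its values were seen, was called lower (12.9 to 4.49 FPKM, log2 change -1.35, adjusted p = 9.21e-06). Tlr2 did not pass (59.7 to 49.7 FPKM, adjusted p = 0.282). Cfp, properdin, the positive regulator of the alternative complement pathway, went from 207 ± 25.5 to 434 ± 29.5 FPKM (SD, n = 4, log2 change 1.07, adjusted p = 1.13e-07) and was the called gene among 24 for complement, Fc and scavenger receptors. Fcgr3 rose from 445 to 714 FPKM, and Scarb1 fell from 79.7 to 47.7 FPKM.

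Inflammatory chemokines and cytokines gave few calls. Of 17 tested chemokines Cxcl10 alone was called, and in the fit of the 8 samples Ccl2 (16.2 to 3.10 FPKM), Ccl4 (149.97 to 66.9 FPKM), Ccl7 (4.71 to 0.516 FPKM) and Ccl12 (2.31 to 0.4998 FPKM) were called lower too. Their adjusted p in the model of all samples was 0.17 to 0.504. Among 26 cytokines and mediators 0 were called (limma; 5 higher and 3 lower at an unadjusted p under 0.05). Tnf fell from 20.8 to 14.3 FPKM, and Osm (3.04 to 5.48 FPKM) and Ier3 (8.67 to 16.3 FPKM) rose. Casp1, the inflammasome protease, was at 94.9 ± 7.75 and 84.0 ± 6.12 FPKM (adjusted p = 0.207). Il1b was at 10.8 FPKM at 0 h and 32.9 FPKM at 24 h (adjusted p = 0.0826) and was called in the fit of the 8 samples. Immediate early genes gave 0 calls of 27 (limma; 5 higher and 3 lower unadjusted). Fos, which encodes an AP-1 subunit, rose from 78.5 to 131 FPKM, Zfp36 rose from 94.5 to 134 FPKM and Klf4 fell from 3.19 to 1.51 FPKM.

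Several programs changed little in size. The clock list gave 0 calls of 14 (limma; 4 higher and 0 lower at an unadjusted p under 0.05), with Per1 (5.82 to 7.45 FPKM) and Nfil3 (6.76 to 10.6 FPKM) rising, and 7 of its 14 genes had separate groups with 24 h higher. The integrated stress and unfolded protein response gave 0 calls of 26 (limma; 2 higher and 8 lower unadjusted). Its chaperones Calr (609 to 399 FPKM, log2 change -0.63) and Hspa5 (316 to 245 FPKM, log2 change -0.37) fell, as did Pdia6 and Sdf2l1. Ribosome biogenesis gave 0 calls of 28 (limma; 0 higher and 14 lower unadjusted), and 7 fell, of which Polr1a and Nop56 had the largest changes (log2 -0.45 and -0.43). For fatty acid oxidation 0 of 22 were called (1 higher and 4 lower unadjusted), for MHC class II presentation 0 of 18 (3 and 4), for lysosome and cathepsins 0 of 34 (5 and 8), for alternative polarization 0 of 15 (0 and 3) and for M-CSF signalling and survival 0 of 24 (4 and 3), all with limma. Mrc1, the mannose receptor, was at 98.5 ± 25.7 and 126 ± 16.04 FPKM (SD, n = 4, adjusted p = 0.303), and Ctsl rose from 568 to 789 FPKM.

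The lists held 60 of the 126 called genes. Among the others, Slc13a3, a dicarboxylate transporter, was at 2.27, 2.09, 2.77 and 5.24 FPKM at 0 h and at 23.2, 12.3, 18.8 and 13.3 FPKM at 24 h (log2 change 2.14, adjusted p = 0.0136). Ednrb, an endothelin receptor, was at 0.711, 0.515, 1.43 and 1.83 FPKM and then at 5.70, 2.86, 7.49 and 10.2 FPKM (log2 change 1.78, adjusted p = 0.0351). Ifitm1, a member of an interferon-inducible family, was higher at 24 h, in contrast to the interferon-stimulated list, at 4.17, 4.93, 7.97 and 7.28 FPKM against 27.8, 21.1, 27.7 and 17.3 FPKM (log2 change 1.80, adjusted p = 2.33e-09). All 3 had separate groups. A530064D06Rik, a gene with no function known here, was at 9.23 ± 2.04 FPKM at 0 h and at 34.5 ± 4.96 FPKM at 24 h (SD, n = 4, log2 change 1.81, adjusted p = 0.000428). Slfn9, of the Schlafen family, was at 10.3, 12.3, 8.79 and 10.9 FPKM and then at 2.92, 4.38, 2.12 and 2.17 FPKM (log2 change -1.60, adjusted p = 0.00165), and 11.5% of its 50-base sequences occur in other genes. Irg1, which makes itaconate and was chosen after its values were seen, was at 17.9, 15.3, 13.7 and 12.9 FPKM and then at 6.01, 3.08, 5.23 and 3.57 FPKM (log2 change -1.57, adjusted p = 0.0105). Pecam1, an adhesion molecule also chosen after its values were seen, was at 0.599 to 0.805 FPKM and then at 3.53 to 5.05 FPKM (log2 change 1.64, adjusted p = 7.83e-09).

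The untreated WT controls at 1, 3 and 6 h show when these levels were reached. At 6 h the called genes had gone, as a median, 27.2% (higher) and 27.5% (lower) of the way from the 0 h to the 24 h mean of log2(FPKM + 1), and 6 of 42 and 9 of 84 were nearer to the 24 h mean than to the 0 h mean. At 1 h the medians were 3.76% and -1.81%. These contrasts share the 0 h samples and no test was made. The mean of the 4 sample medians of the cholesterol synthesis list, as the difference from the 0 h mean, at 1, 3, 6 and 24 h was 0.07, -0.05, -0.23 and -0.998. Sqle was at 18.2 ± 1.37, 16.4 ± 1.98 and 12.2 ± 0.924 FPKM at 1, 3 and 6 h (SD, n = 4). Replication genes gave 0.02, -0.11, -0.25 and -0.95, and the NRF2 list 0.07, 0.08, 0.13 and 0.92. The interferon-stimulated list had moved furthest by 6 h, at -0.11, -0.22, -0.50 and -1.10. Mitotic genes were on the other side of 0 before 24 h, at 0.05, 0.22, 0.26 and -0.61, and their sample medians ranged from -0.12 to 0.63 at 6 h.

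Some single genes took another course. Thbs1 was lower at 1 h than at 0 h, at 7.74 ± 0.538 FPKM, and then at 32.7 ± 2.35 FPKM at 3 h and 42.5 ± 3.45 FPKM at 6 h. Vegfa was at 5.43 ± 0.632, 9.44 ± 0.976 and 13.5 ± 0.924 FPKM at 1, 3 and 6 h, and Ifitm1 at 6.35 ± 0.710, 8.97 ± 0.814 and 12.5 ± 0.7501 FPKM. Abca1 was at 25.8 ± 4.06 FPKM at 6 h, where its samples overlapped those at 0 h, and Mylip was at 25.7 ± 3.54 FPKM at 1 h and 19.6 ± 3.02 FPKM at 3 h. In the samples with 24 h of IL-4 (20 ng/ml, n = 3) Abca1 was at 14.5 ± 3.81 FPKM and Thbs1 at 3.31 ± 0.812 FPKM. Clec4d was at 300.2 ± 78.6 FPKM and Cyp51 at 21.1 ± 7.12 FPKM there. Some other genes did not lie towards their 0 h level with IL-4. Gclm was at 170 ± 50.9, Hmox1 at 1066 ± 262, Rrm2 at 5.64 ± 2.86 and Spp1 at 372 ± 117 FPKM. Their means in untreated samples at 24 h were 167, 639, 7.83 and 605 FPKM. No test was made of these values.

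**Figure D4:**
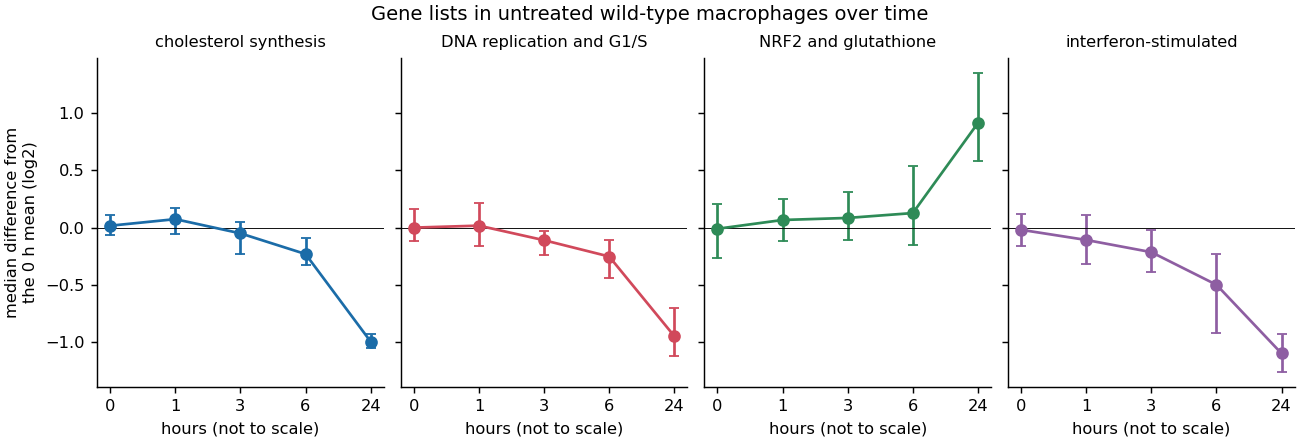
Median over the tested members of 4 gene lists of log2(FPKM + 1) minus the 0 h mean (vertical axis) in untreated WT samples at 0, 1, 3, 6 and 24 h (horizontal axis, not to scale), as the mean of the 4 samples with bars from the lowest to the highest. In each list the value at 6 h is nearer to that at 0 h than to that at 24 h.

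Untreated Stat6-/- macrophages, which share no sample with the WT groups, gave 17 calls between 0 and 24 h (0.159% of loci), 4 higher (0.0374%) and 13 lower (0.122%), with 2 samples per group. These counts were not stable. A fit of the 4 Stat6-/- samples alone gave 0 calls (limma; 30 genes at an unadjusted p under 0.05 and 2-fold), and in the model of all samples the 13 lower calls became 8 and 5 without replicate 1 or 2 at 0 h and 33 and 20 without replicate 1 or 2 at 24 h. Of the 17, 14 were also called in WT in the same direction. They included Abca1, Thbs1, Trf and Pecam1 among the increases and Idi1, Sqle, Insig1, Fads2, Spp1 and Irg1 among the decreases. Abca1 was at 31.3 and 22.9 FPKM at 0 h and at 53.6 and 70.8 FPKM at 24 h (log2 change 1.17, adjusted p = 0.0377). Sqle was at 11.5 and 13.3 FPKM and then at 3.84 and 3.01 FPKM (log2 change -1.60, adjusted p = 0.00495). Of the 42 genes called higher in WT, 42 had a change of the same sign, against 43.9% of all loci, and of the 84 called lower 82 did, against 56.0%. Both Stat6-/- samples at 24 h lay beyond both at 0 h in 17 of the 42 (12.0% of all loci) and in 39 of the 84 (19.5% of all loci). The median log2 changes were 1.29 in WT and 0.88 in Stat6-/- for the genes called higher, and -1.19 and -0.64 for those called lower.

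The medians of the lists are given for both genotypes with no test of the difference between them. The median log2 change of the cholesterol synthesis list was -0.96 in WT and -0.80 in Stat6-/-, and that of the interferon-stimulated list -1.10 and -1.39. For DNA replication it was -0.95 and -0.30, and for mitosis -0.62 and 0.31. The 2 Stat6-/- samples at 24 h were far apart, with sample medians of -0.70 and -0.019 for DNA replication and -0.045 and 0.70 for mitosis, as differences from the 0 h mean. Ccne1 was at 4.02 and 2.83 FPKM in Stat6-/- samples at 0 h and at 2.26 and 3.09 FPKM at 24 h, and Rrm2 was at 11.7 and 6.12 FPKM and then at 4.70 and 12.8 FPKM. In both genes the samples at 24 h overlapped those at 0 h. The test of the difference between genotypes (limma interaction) called 1 gene, Clec4e (0.00935% of loci), and had 4 with an adjusted p under 0.05 (0.0374%), 0 of them among the 126 (36 genes at an unadjusted p under 0.05 and 2-fold). So no difference between genotypes was established for the genes called in WT, in a design with 2 Stat6-/- samples per group.

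**Figure D5:**
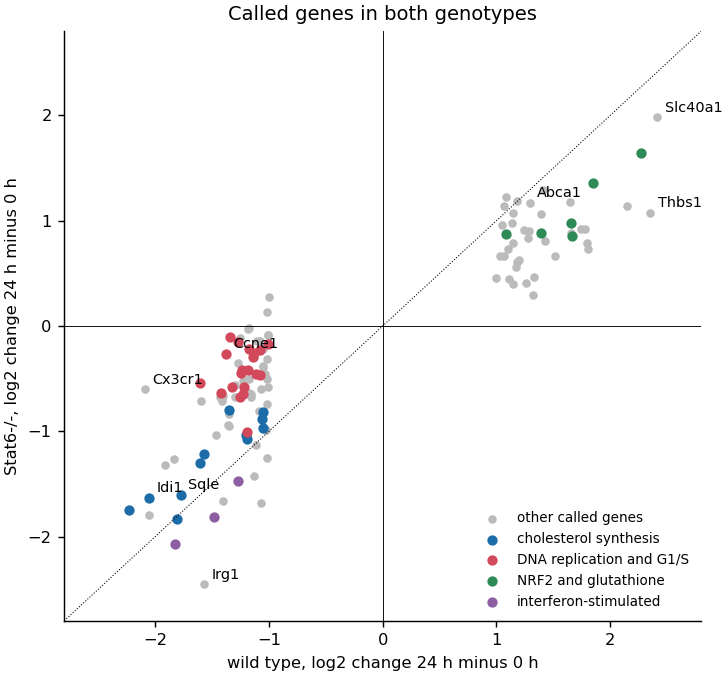
Log2 change from 0 h to 24 h in Stat6-/- (vertical axis, 2 samples per time) against WT (horizontal axis, 4 samples per time) for the 126 genes called in WT, with the members of 4 gene lists in colour and a dotted line where both are equal. Of the 126, 124 lie on the same side of 0 in both genotypes.

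Markers of other cells that a marrow culture can hold were examined beside these results, and their part in them was not tested. Of 12 macrophage identity markers 0 were called (limma; 4 higher and 1 lower at an unadjusted p under 0.05), and Emr1 (703 to 1093 FPKM) and Mertk (17.8 to 26.0 FPKM) were among those that rose. Of the 9 markers of monocytes and progenitors 6 were tested and 2 were called lower (Ccr2 and Ly6c1), and their summed level was 148 to 201 FPKM at 0 h and 57.9 to 80.9 FPKM at 24 h. Of 12 tested markers of neutrophils and their precursors Mmp8 was called lower, and their sum overlapped between the times (505 to 652 and 492 to 697 FPKM). S100a9, the most abundant, was at 211 ± 25.7 and 233 ± 44.1 FPKM (SD, n = 4). Of 10 dendritic cell markers 3 were tested and 0 called (limma; 2 higher and 0 lower unadjusted), with sums of 6.00 to 9.63 FPKM and 11.1 to 16.1 FPKM. Of 13 lymphocyte markers 2 were tested and Cd4, which macrophages can also carry, was called higher (4.11 to 11.8 FPKM, log2 change 1.33, adjusted p = 1.39e-05). None of the 12 fibroblast and stroma markers reached 1 FPKM in any of the 8 samples, and their sum was at most 1.82 FPKM. Osteoclast markers gave 0 calls of 7 (limma; 1 higher and 0 lower unadjusted), with Atp6v0d2 at 12.4 ± 3.88 and 35.6 ± 18.2 FPKM (SD, n = 4, adjusted p = 0.147). Tfrc, the transferrin receptor, was the marker tested for erythroid cells (9.31 to 19.4 FPKM, adjusted p = 0.141), and Prss34 that for mast cells and basophils (0.376 to 0.699 FPKM, adjusted p = 0.124).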

How the data were processed

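RNA from WT and Stat6-/- BMDMs, untreated or given IL-4, was sequenced from poly-A selected libraries made with a kit that keeps no strand, as paired reads. The authors aligned the reads with TopHat2 (2.0.7) to mm10 and deposited FPKM values per locus from Cufflinks (2.0.2), per the submitters' processing notes. The annotation is not given in the sources used here. Reads per library were not used here, so depth is unknown beyond the relative depths given.

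Groups came from the sample labels. Loci with 1 FPKM in 1 of the 8 samples were tested on log2(FPKM + 1) with limma 3.58.1 (R 4.3.3). The fit used moderated variances with a trend, 53 samples in 18 groups and 35 residual degrees of freedom. Benjamini-Hochberg adjustment was made over all 10696 loci. Python 3.11.15, scipy 1.17.1 and exact permutation tests served for single values. The p-values measure the spread between samples. The labels do not tie replicate numbers at 0 h and 24 h to 1 animal.

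Members and gene lists were chosen with earlier results of these data known. The genes named were Abca1, the 12 largest called changes in each direction with separate groups, up to 6 called members of each list (or the 2 most abundant where none was called) and the most abundant marker of each cell type. Any other gene is named after its values were seen. Some genes to which this rule applies, and some single results, are not reported here. Motifs were counted in 27025 RefSeq promoters (GRCm38.p6). Alternatives were other pseudocounts, filters, scalings, samples in the model, a replicate block and leaving out each sample.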

Additional observations from a re-analysis of the deposited data

Results flagged for a closer look

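Among 162 sets of 4 samples (each named gene and library measure at each time), 8 held a sample that lay apart from the other 3, where chance gives about 1 in 20. At 0 h these were Idi1 in replicate 2 (16.9 FPKM, against 13.8 to 14.2 FPKM), Cd4 in replicate 4 (6.28 FPKM, against 3.31 to 3.46 FPKM) and the FPKM sum of replicate 1 (434971, against 403215 to 407670). At 24 h they were Sqle in replicate 3 (4.77 FPKM, against 3.97 to 4.03 FPKM), Bax in replicate 2 (119 FPKM, against 153 to 158 FPKM), Bst2 in replicate 1 (355 FPKM, against 243 to 260.3 FPKM), Nr1d2 in replicate 2 (17.8 FPKM, against 15.3 to 15.4 FPKM) and the FPKM sum of replicate 2 (396441, against 433667 to 440959). The values of Idi1, Sqle, Bst2 and Cd4 left the groups at 0 h and 24 h separate.

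The change from 0 h to 24 h differed between genotypes by the limma interaction test in 4 genes at an adjusted p under 0.05, of which 3 are given here, Clec4e, Fcrl1 and Vwa8, each with an adjusted p of 0.00834. Clec4e, mincle, fell by 1.41 on the log2 scale in Stat6-/- samples (adjusted p = 1.75e-07) and by 0.37 in WT samples (adjusted p = 0.013), a difference of 1.04. Fcrl1, an Fc receptor-like protein, had log2 changes of 0.21 in WT and -0.43 in Stat6-/- samples, a difference of 0.64, and Vwa8 of -0.27 and 0.33, a difference of -0.60. The number of genes called by this test ranged from 0 to 36 when 1 sample was left out.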

How the results depend on the processing

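The 42 higher and 84 lower WT calls became 68 and 178 with a pseudocount of 0.1, 66 and 149 with the 8 compared samples alone, 67 and 147 with the WT samples alone, and 27 higher without the filter on low values; all 126 were among the calls of the fits of the 8 and of the WT samples. Left-out samples gave 25 to 43 higher and 61 to 92 lower. Without the fold limit, the 635 higher and 1286 lower became 1235 and 2197 in WT samples alone, 1221 higher after quantile normalization, 773 lower with a filter at a mean of 5 FPKM, and 327 to 622 and 946 to 1272 with a sample left out. Stat6-/- calls (4 and 13) became 0 and 0 in the samples compared alone, 8 lower after quantile or upper quartile scaling, and 0 to 32 and 5 to 33 with a sample left out. The single interaction call became 2 with a pseudocount of 0.1 or upper quartile scaling, 0 with the samples compared or the control samples alone, and 0 to 36 with a sample left out.

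The 20 called replication genes became 31 with a pseudocount of 0.1, 13 with a mean filter of 5 FPKM (fewer genes tested) and 16 to 25 with a sample left out, and the 12 cholesterol synthesis genes 11 to 14. The 3 interferon-stimulated genes became 1 without the filter, 24 in the 8 samples or the WT samples alone, 6 in the control samples alone and 1 to 3 with a sample left out. The 6 NRF2 genes became 0 without the filter, 13 in the 8 samples or the WT samples alone, and 0 to 4 with a sample left out. The difference in FPKM sum, 14501.8, was -3078 without the 10 most abundant loci.

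With the replicate number as a block there were 67 higher and 148 lower WT calls (66 and 148 in the 8 samples alone), 1516 and 2545 without the fold limit (962 higher in the 8 samples), 21 and 116 Stat6-/- calls, 8 interaction calls, 24 interferon-stimulated genes and 13 NRF2 genes, in both block fits. Deviations from the group mean of same-numbered WT samples at 0 h and 24 h correlated across loci with r of 0.194, 0.461, 0.0730 and 0.172 for replicates 1 to 4. Replicates 1, 2 and 4 at 0 h correlated best with the same number at 24 h, and replicate 3 with replicate 4 (0.134). Because of replicate 3 the numbers were not treated as pairs. If they are pairs, the main fit overstates the error. The SE of Slc40a1 was 0.84 in the main fit and 0.20 with the block.

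Of the 126 WT calls, 113 were kept after upper quartile scaling, 108 after quantile normalization and 82 without replicate 4 at 24 h. For the named genes the adjusted p alone was followed, without the fold limit. Of 980 values of the 47 called named genes under alternatives, 894 kept an adjusted p under 0.05 and 0 changed sign. The other 86 did not keep it, in 14 genes (69 with a sample left out). The 14 were Bst2, Cat, Ccr2, Ednrb, Gbp2, Gclm, Gsr, Hmox1, Itgb7, Ly6c1, Pbk, Slc40a1, Slc7a11 and Srxn1. Sign changes occurred in genes that did not pass, with a sample left out, where the log2 change ranged from -0.18 to 0.019 for Psap, from -0.11 to 0.091 for Npm1, from -0.050 to 0.089 for Noc2l and from -0.056 to 0.19 for Bax. Where no cause is given, it was not tested. Values near 1 FPKM rest on few reads, and the depth does not allow an interval to be given.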
